A study of Glycine max with 10 samples.

Results

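Lipoxygenases are iron-containing dioxygenases that add oxygen to polyunsaturated fatty acids such as linoleic and linolenic acid. The hydroperoxides they make are precursors of jasmonates and of volatile aldehydes. In soybean (Glycine max) some lipoxygenases are abundant proteins of the mature seed and give soy products their beany flavour, while others occur in leaves and other growing parts, where some of them also serve as storage proteins.

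The genes described here are the lipoxygenase genes of a cluster on chromosome 13 and of its counterpart on chromosome 15, taken as homeologous, that is, as copies left by the duplication of the whole genome. They were chosen by their identifiers and not by a rule on their values, though with earlier results of these data known. Of the 8 identifiers, 7 have values among the 54154 genes with values, 4 on chromosome 13 (Glyma13g42310, Glyma13g42320, Glyma13g42330 and Glyma13g42340) and 3 on chromosome 15 (Glyma15g03030, Glyma15g03040 and Glyma15g03050). Glyma15g03060 was not analysed here. All 7 genes reached 1 FPKM at some time point, the level taken as expressed, as did 33358 genes in all.

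The RNA came from embryonic axes, the part of the embryo that grows into root and shoot, of cultivar BRS 284, dissected away from the cotyledons. Axes were taken from dry seeds and from seeds imbibed in water for 3, 6, 12 or 24 hours (HAI, hours after imbibition), with 2 biological replicates for each of the 5 time points, 10 samples in all. The authors' table has 1 FPKM (fragments mapped to a gene, scaled by transcript length and by the number of mapped fragments) per gene and time point, made from both replicates, so no value has an SD and no difference below could be tested against the spread between replicates. The table carries no read counts, so no counting error could be set on a value. Because FPKM is a share of the RNA of the whole axis, fewer cells that express a gene and less RNA per cell cannot be told apart. The table pairs no identifier with a tissue marker, so the label of the axes was not checked against markers.

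The 7 genes followed opposite courses. Glyma15g03030, Glyma13g42310 and Glyma13g42320 were present in dry axes at more than 10 FPKM and declined after 3-HAI, and at 24-HAI they were lower than in dry axes by 31.0-fold, 2.39-fold and 36.1-fold. The size of these decreases moved with the scaling, from 17.9-fold to 42.3-fold for Glyma15g03030, from 1.38-fold to 3.26-fold for Glyma13g42310 and from 20.8-fold to 73.1-fold for Glyma13g42320 over the 3 rescalings tried (median-ratio scaling, quantile normalization and equal totals). Glyma13g42340, Glyma15g03040 and Glyma15g03050 were under 1 FPKM until 6-HAI and reached 161, 77.5 and 10.5 FPKM at 24-HAI. Glyma13g42330 was high at 12-HAI alone, with 76.1 FPKM, and is listed at 0 at 24-HAI. Each cluster held genes of both courses.

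**Figure D1:**
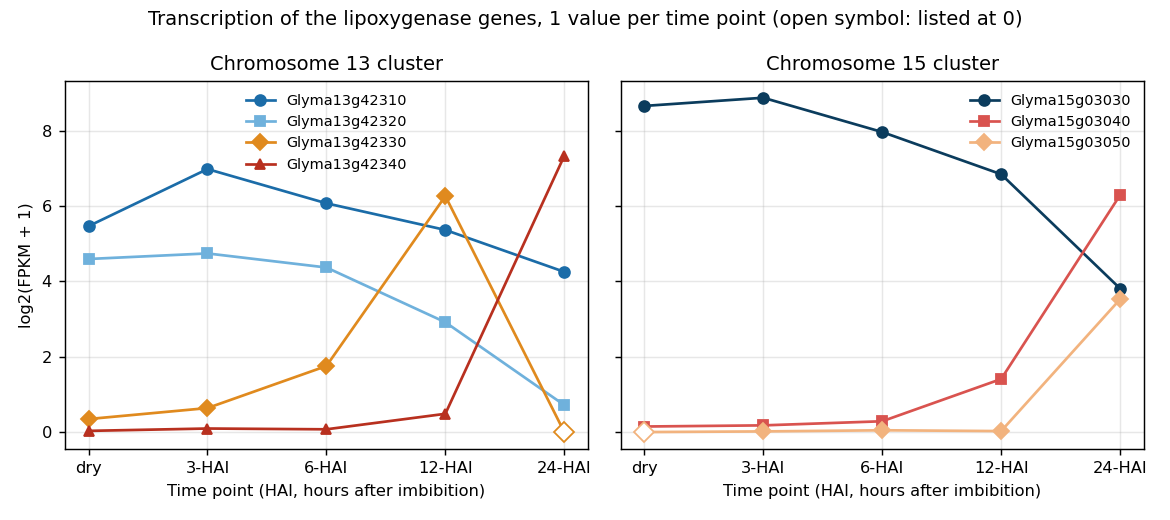
Transcription of the 4 chromosome 13 genes (left) and the 3 chromosome 15 genes (right) at the 5 time points, as log2(FPKM + 1), with 1 value per time point and open symbols for values listed at 0. The genes that are high in dry axes (blue) decline after 3-HAI, Glyma13g42330 stands out at 12-HAI with 76.1 FPKM, and Glyma13g42340, Glyma15g03040 and Glyma15g03050 are high at 24-HAI alone.

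Glyma15g03030 was the most abundant member from dry axes to 12-HAI. It lies on chromosome 15 from 2123572 to 2128078 on the plus strand (G. max genome version 1.1, as for all positions here; whether positions count from 0 or 1 is not stated). It had 404 (dry), 470 (3-HAI), 250 (6-HAI), 114 (12-HAI) and 13.1 FPKM (24-HAI). These levels ranked 300th among all genes in dry axes and 160th at 3-HAI, but 9408th at 24-HAI. The step between 12-HAI and 24-HAI, an 8.75-fold decrease, was its largest by fold, over the longest of the intervals. On the log2(FPKM + 1) scale the change in that step was -3.04, which ranked 144th among the decreases of all genes.

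Glyma13g42310 is on chromosome 13 from 42321510 to 42325985, on the plus strand, and shares all 5 values with Glyma13g42300, its upstream neighbour, which ends 2299 bases before it. The values belong to the pair and cannot be assigned to the lipoxygenase gene alone. They were 43.3 (dry), 126 (3-HAI), 66.5 (6-HAI), 40.3 (12-HAI) and 18.1 FPKM (24-HAI). The level at 3-HAI was 2.91 times that in dry axes, the largest early increase among the members present in dry axes. It was also highest at 3-HAI under the 3 rescalings tried, though after median-ratio scaling the increase was under 2.4-fold, with 119 FPKM at 3-HAI against 54.0 FPKM in dry axes.

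Glyma13g42320 lies next to that gene, from 42328962 to 42333252 on the plus strand, 2977 bases further on. Its level was 23.2 (dry), 25.8 (3-HAI), 19.7 (6-HAI), 6.55 (12-HAI) and 0.643 FPKM (24-HAI), so it was the only one of these 3 genes to end under 1 FPKM. It decreased 3.01-fold between 6-HAI and 12-HAI and then 10.2-fold to 24-HAI. Glyma15g03030 and Glyma13g42310 also declined before the last interval, by 2.19-fold and 1.65-fold between 6-HAI and 12-HAI. From 3-HAI to 6-HAI Glyma13g42320 fell least of these 3 genes, 1.31-fold against 1.88-fold for Glyma15g03030 and 1.89-fold for Glyma13g42310.

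As deposited, the course of Glyma13g42320 ran close to that of Glyma15g03030 at a much lower level. The level of Glyma15g03030 was between 12.7 times (6-HAI) and 20.3 times (24-HAI) that of Glyma13g42320 at each time point. After quantile normalization this ratio was less steady, between 12.6 times (dry) and 50.0 times (24-HAI). Against Glyma13g42310 the ratio was not steady. Glyma15g03030 had 9.34 times as much in dry axes, 3.74 times as much at 3-HAI and 2.83 times as much at 12-HAI, and at 24-HAI it was the lower of the 2, at 0.721 times. Median-ratio scaling and equal totals multiply a whole time point and leave such ratios as they are, and after quantile normalization the ratio to Glyma13g42310 was 7.40 in dry axes and 0.675 at 24-HAI. Across the 5 time points Pearson's r of log2(FPKM + 1) was 0.99 between Glyma13g42320 and Glyma15g03030, and 0.86 between Glyma13g42310 and each of them, values that describe 5 points from the same libraries and carry no test.

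Whether Glyma15g03030 and Glyma13g42320 were highest in dry axes or at 3-HAI depended on the scaling. As deposited, they had 1.16 and 1.11 times as much at 3-HAI as in dry axes. After median-ratio scaling both were highest in dry axes, with 445 FPKM at 3-HAI against 504 FPKM in dry axes for Glyma15g03030 and 24.4 FPKM against 29.0 FPKM for Glyma13g42320. The decline from 3-HAI onwards was present under all 3 rescalings.

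Glyma13g42330 occupies 42333437 to 42340372 on the minus strand of chromosome 13. Its end faces that of Glyma13g42320 across 185 bases, and the library kit named by the authors does not mark strand, so reads at that junction cannot be divided between them by strand. The gene had 0.271 (dry), 0.556 (3-HAI), 2.37 (6-HAI) and 76.1 FPKM (12-HAI), and its last value is listed as 0. Between 6-HAI and 12-HAI it gained 32.0-fold, and by its log2(FPKM + 1) change of 4.51 it ranked 8th among all genes in that interval. Its neighbour Glyma13g42320 was 3.01-fold lower at 12-HAI than at 6-HAI.

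The 0 at 24-HAI of Glyma13g42330 is alone of its kind in that interval. Of 12475 genes with at least 10 FPKM at 12-HAI, 1 gene is listed at 0 at 24-HAI, and it is this one. The next lowest, Glyma20g01423 (named after its value was seen), kept 0.0168 of its 12-HAI level. In the interval before, 1 gene went to 0 from at least 10 FPKM, Glyma14g14210, and it returned to 10 FPKM or more in the next interval, as did 2 of the 3 genes that were at 0 at 6-HAI after 10 FPKM or more at 3-HAI. An exact 0 in such a table can be an estimate that failed, which was not tested here, so no ratio is given for this step. Without the gene the sum of both clusters at 12-HAI was 163 FPKM.

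Glyma13g42340 was the most abundant member at 24-HAI. It lies on chromosome 13 from 42357724 to 42363228 on the plus strand, 17352 bases beyond Glyma13g42330. Its level was 0.0223 (dry), 0.0675 (3-HAI), 0.0522 (6-HAI), 0.400 (12-HAI) and 161 FPKM (24-HAI). The last value was 402 times the one before, and its rank among all genes moved to 528th at 24-HAI, against 32672nd at 12-HAI. On the log2(FPKM + 1) scale the step was 6.85 and ranked 8th among all genes. As the earlier value is under 1 FPKM, the ratio is sensitive to small errors in it.

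Glyma15g03040, from 2130469 to 2134541 on the minus strand of chromosome 15, lies 2391 bases after Glyma15g03030. It had 0.108 (dry), 0.131 (3-HAI), 0.220 (6-HAI), 1.66 (12-HAI) and 77.5 FPKM (24-HAI). Unlike Glyma13g42340 it passed 1 FPKM at 12-HAI, with a 7.52-fold rise in that interval and a 46.8-fold rise in the next.

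Glyma15g03050 lies 7627 bases further on, from 2142168 to 2147466 on the plus strand. It is listed at 0 in dry axes, followed by 0.0122 (3-HAI), 0.0338 (6-HAI), 0.0182 (12-HAI) and 10.5 FPKM (24-HAI). Its 24-HAI level was 579 times that at 12-HAI, the 9th highest such ratio among the 11960 genes with at least 10 FPKM at 24-HAI and a value above 0 at 12-HAI. In the same ranking Glyma13g42340 was 12th and Glyma15g03040 was 81st. As the 12-HAI value of Glyma15g03050 is 0.0182 FPKM, its ratio is sensitive to small errors in that value. The ranking also leaves out genes listed at 0 at 12-HAI. It holds only genes picked for a high level at 24-HAI, which is the upper value of the ratio. Glyma15g03050 passes that limit narrowly at 10.5 FPKM, and after median-ratio scaling it is under it, at 9.63 FPKM. On the log2 scale used above the order of the members differed. Among the increases of all genes from 12-HAI to 24-HAI, Glyma13g42340 ranked 8th, Glyma15g03040 37th and Glyma15g03050 165th.

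At 24-HAI the order of levels was Glyma13g42340, Glyma15g03040, Glyma13g42310, Glyma15g03030, Glyma15g03050, Glyma13g42320 and, listed at 0, Glyma13g42330. Glyma13g42340 had 2.07 times as much as Glyma15g03040 and 15.2 times as much as Glyma15g03050. Without replicate values it cannot be said which neighbours in this order differ beyond their spread. In dry axes the order was Glyma15g03030, Glyma13g42310 and Glyma13g42320, with the other 4 genes under 1 FPKM.

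Summed over both clusters, lipoxygenase transcription varied less than that of any single member named above. The sum was 471 (dry), 623 (3-HAI), 339 (6-HAI), 239 (12-HAI) and 280 FPKM (24-HAI). It made up between 0.0440% (12-HAI) and 0.0743% (3-HAI) of the FPKM of all genes. The genes behind it were exchanged almost completely. The 3 genes with at least 10 FPKM in dry axes gave 99.9% (dry), 99.9% (3-HAI), 99.2% (6-HAI), 67.3% (12-HAI) and 11.3% (24-HAI) of the sum. The 67.3% at 12-HAI rested on Glyma13g42330, which gave 31.8% of the sum there and is listed at 0 at 24-HAI. Glyma15g03040, Glyma13g42340 and Glyma15g03050 gave 0.692%, 0.167% and 0.00760% at 12-HAI.

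**Figure D2:**
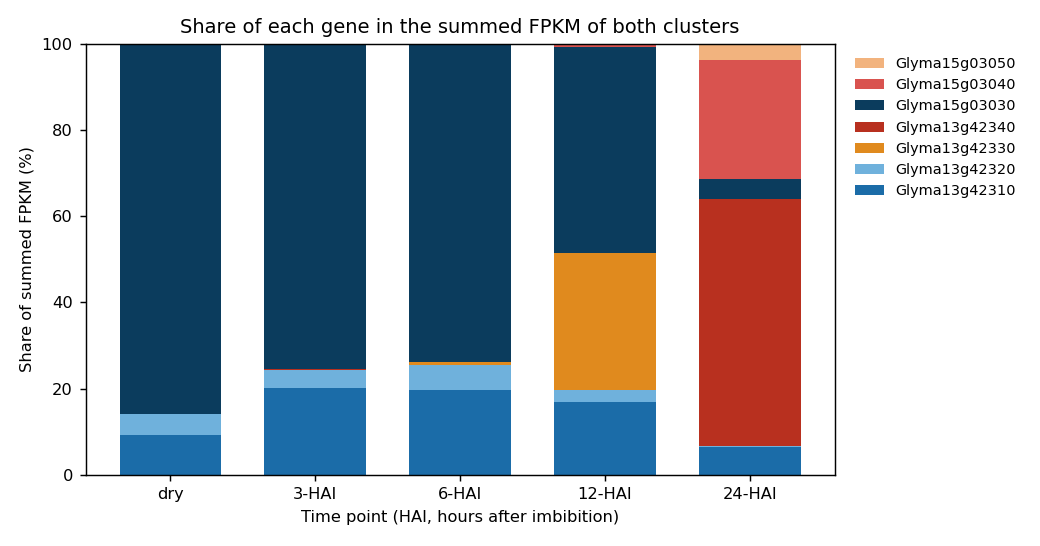
Share of each of the 7 genes in the summed FPKM of both clusters (percent, stacked to 100) at the 5 time points, with the genes that are high in dry axes in blue. Glyma15g03030 gives 85.8% in dry axes and 4.66% at 24-HAI, when Glyma13g42340 gives 57.3%.

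Over the genes with values, which leave out Glyma15g03060, the balance between the clusters turned round. The chromosome 15 cluster gave 85.8% (dry), 75.6% (3-HAI), 73.8% (6-HAI), 48.4% (12-HAI) and 36.0% (24-HAI) of the sum. The sum of the chromosome 13 cluster at 24-HAI was 179 FPKM, against 66.8 FPKM in dry axes, 2.69 times as high. That of the chromosome 15 cluster was 101 FPKM at 24-HAI, against 404 FPKM in dry axes, a ratio of 0.250. At 12-HAI the near equality rested on Glyma13g42330, since without it chromosome 15 gave 71.0% of the sum there. Leaving out Glyma13g42310, whose values are shared with its neighbour, made the chromosome 13 sum 6.86 times as high at 24-HAI as in dry axes, and chromosome 15 then gave 38.5% at 24-HAI and 94.5% in dry axes.

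For the intervals between time points, a gene was counted as changed where its FPKM differed at least 2.4-fold, the smallest change that the study's methods give for its own calls, provided that the higher value was 1 FPKM or more. These counts use no test. Between dry axes and 3-HAI 1 of the 7 members was up, Glyma13g42310, and 0 were down, beside 11.5% and 1.32% of the 33358 expressed genes. From 3-HAI to 6-HAI 1 was up, Glyma13g42330, and 0 were down, beside 6.01% and 0.698%. The median log2(FPKM + 1) change of the members was 0.15 and -0.02 in these intervals, beside 0.10 and -0.02 for all expressed genes. The -0.02 of the members is the value of Glyma13g42340, under 1 FPKM at both time points. From 3-HAI to 6-HAI the abundant Glyma15g03030 and Glyma13g42310 were 1.88-fold and 1.89-fold lower. Both changed by -0.91 on the log2(FPKM + 1) scale, below the 5th percentile of expressed genes (-0.76).

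From 6-HAI to 12-HAI Glyma13g42330 and Glyma15g03040 were up and Glyma13g42320 was down, 2 and 1 of the 7 members, beside 7.53% and 3.24% of expressed genes. From 12-HAI to 24-HAI 3 members were up (Glyma13g42340, Glyma15g03040 and Glyma15g03050) and 3 were down (Glyma13g42320, Glyma15g03030 and, by its listed 0, Glyma13g42330), beside 16.4% and 9.13% of expressed genes. Only Glyma13g42310, 2.23-fold lower, stayed within the limit in that interval. The median log2(FPKM + 1) change of the members was -0.02 and then -1.11 in these intervals, and that of the expressed genes was 0.02 in both. The -0.02 is the value of Glyma15g03050, under 1 FPKM at 6-HAI and 12-HAI. The -1.11 rests on the listed 0 of Glyma13g42330, and without that gene the median of the other 6 was 1.19. That value lies midway between Glyma13g42310 (-1.11) and Glyma15g03050 (3.50), and no member is near it. With 7 genes these shares are a description of the members.

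**Figure D3:**
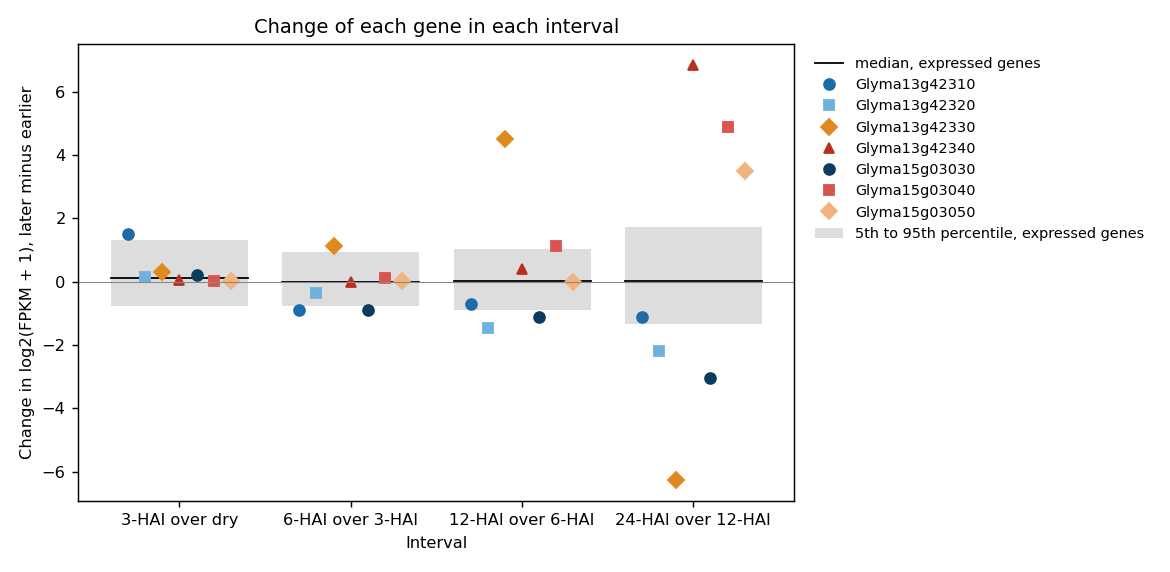
Change in log2(FPKM + 1) of each of the 7 genes in each interval, later minus earlier time point, over the range from the 5th to the 95th percentile of the 33358 expressed genes (grey) and their median (line). In the last interval 3 genes lie above that range, Glyma13g42340 at 6.85, Glyma15g03040 at 4.89 and Glyma15g03050 at 3.50, and 3 lie below it, among them Glyma13g42330, drawn at -6.27 from its listed 0 at 24-HAI.

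Between the ends of the series, 24-HAI against dry, 3 of the 7 members were up and 2 were down, beside 38.5% and 21.7% of the expressed genes. Glyma13g42310 missed the limit narrowly, with 18.1 FPKM at 24-HAI against 43.3 FPKM in dry axes, a 2.39-fold decrease, and with median-ratio scaling it passed it at 3.26-fold, which made 3 members down. The median log2(FPKM + 1) change of the members was -0.35, which is the value of Glyma13g42330 with its listed 0, and without that gene it was 1.16. The 1.16 lies midway between Glyma13g42310 (-1.21) and Glyma15g03050 (3.53), and no member is near it. The median of the expressed genes was 0.39 and itself moved with the scaling (0.03 to 0.98). Decreases about as large as that of Glyma13g42310 were common. The median decrease of the 11638 genes with at least 10 FPKM in dry axes and a value above 0 at 24-HAI was 2.21-fold. Glyma13g42320 and Glyma15g03030 ranked 391st and 460th among these genes by the size of their decrease.

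Preferential expression was scored here as 1 minus the Jensen-Shannon distance between a gene's profile and a profile confined to 1 time point, with the limit of 0.7 taken from the study's methods. On log10(FPKM + 1) Glyma15g03050 scored 0.89 and Glyma13g42340 scored 0.79 at 24-HAI. Both are among the 730 genes at or over the limit at that time point, out of 33358 expressed genes. By level at 24-HAI Glyma13g42340 was 3rd of these 730 genes and Glyma15g03050 77th. With a pseudocount of 0.1 Glyma13g42340 fell under the limit, at 0.61, while Glyma15g03050 stayed over it at 0.76. Glyma15g03040 scored 0.63 at 24-HAI, under the limit, but 0.88 on linear FPKM. Glyma13g42330 scored 0.59 at 12-HAI, the third highest score there, and 0.86 on linear FPKM, values that use its 0 at 24-HAI. The scores of Glyma13g42310, Glyma13g42320 and Glyma15g03030 did not exceed 0.28.

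By position, and among the genes with values, which leave out Glyma15g03060, the genes present in dry axes lay at one end of each cluster. The chromosome 13 cluster spans 41718 bases in the order Glyma13g42310, Glyma13g42320, Glyma13g42330 and Glyma13g42340, with only Glyma13g42330 on the minus strand. On chromosome 15 the genes with values span 23894 bases in the order Glyma15g03030, Glyma15g03040 and Glyma15g03050, with only Glyma15g03040 on the minus strand. In both, plus-strand genes that were high in dry axes came first, then a minus-strand gene that rose at 12-HAI, then a plus-strand gene first above 1 FPKM at 24-HAI. The minus-strand genes shared the rise between 6-HAI and 12-HAI but not its size. Glyma13g42330 had 45.9 times the FPKM of Glyma15g03040 at 12-HAI. The rise was not particular to them, as plus-strand Glyma13g42340 gained 7.66-fold in that interval, to 0.400 FPKM, beside 7.52-fold for Glyma15g03040. Pearson's r of log2(FPKM + 1) for Glyma15g03040 was -0.20 with Glyma13g42330, 0.99 with Glyma13g42340 and 0.98 with Glyma15g03050. The -0.20 uses the listed 0 of Glyma13g42330 at 24-HAI. No locus with values lies between the members of either cluster. Which gene of one cluster is the closest copy of which gene of the other was not tested, as no sequence was used.

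**Figure D4:**
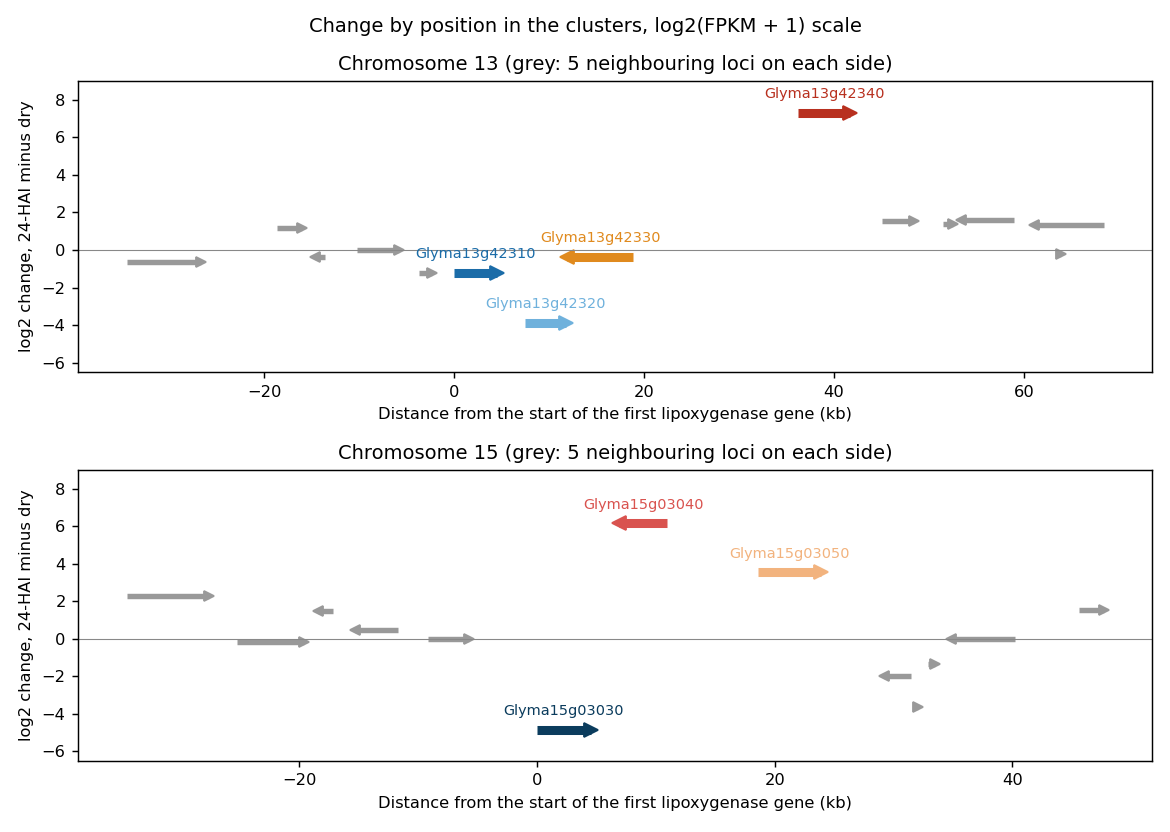
Change in log2(FPKM + 1) between dry axes and 24-HAI (24-HAI minus dry) against distance in kb from the start of the first lipoxygenase gene, for both clusters (coloured) and 5 neighbouring loci on each side (grey), with arrows showing strand. Of the genes with values, the first of each cluster lies below 0, Glyma13g42310 at -1.21 and Glyma15g03030 at -4.85. The last of each lies above 0, Glyma13g42340 at 7.30 and Glyma15g03050 at 3.53. The grey loci lie between -3.62 and 2.29.

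Loci beside the clusters did not show changes as large as the largest of the members. Of the 10 neighbours on chromosome 13, 8 reached 1 FPKM, and at 24-HAI 5 of them were up and 0 down against dry axes, with log2(FPKM + 1) changes from -1.21 (Glyma13g42300, which shares its values with Glyma13g42310) to 1.61. Glyma13g42360, next after Glyma13g42340, had 11.2 (dry), 34.9 (3-HAI), 42.2 (6-HAI), 35.7 (12-HAI) and 35.1 FPKM (24-HAI), with no step between 12-HAI and 24-HAI. On chromosome 15, 8 of the 10 neighbours reached 1 FPKM, with 3 up and 3 down. In the same comparison 38.5% of all expressed genes were up and 21.7% were down.

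The 3 neighbours that were lower at 24-HAI on chromosome 15 lie in a row after Glyma15g03050, with no other locus with values between. The nearest, Glyma15g03070 on the minus strand, had 63.8 (dry), 139 (3-HAI), 76.2 (6-HAI), 39.6 (12-HAI) and 15.4 FPKM (24-HAI). It was highest at 3-HAI, as were the pair Glyma13g42300 and Glyma13g42310 and 20.1% of all expressed genes. Glyma15g03025, the neighbour before Glyma15g03030, is listed at 0 throughout. What these neighbouring loci encode is not given by the table.

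Genes elsewhere with the most similar course were sought among those that reach 10 FPKM and change at least 2.4-fold, by Pearson's r of log2(FPKM + 1) over the 5 time points. With 5 points a high r is common, and 423 of 12539 genes had an r of at least 0.99 with Glyma15g03030, 262 with Glyma13g42320 and 147 with Glyma13g42340. Nearest to Glyma15g03030 were Glyma18g43940 (r = 0.9998), Glyma05g20510 and Glyma15g15030. Glyma18g43940 had 116 (dry), 135 (3-HAI), 66.0 (6-HAI), 28.1 (12-HAI) and 2.32 FPKM (24-HAI). Nearest to Glyma13g42320 were Glyma13g24461, Glyma10g12110 and Glyma18g00690, and to Glyma13g42310, Glyma17g12960, Glyma17g38140 and Glyma19g35501.

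Among the late genes, the nearest to Glyma13g42340 were Glyma06g47200, Glyma12g29100 and Glyma17g14910, all under 0.3 FPKM until 12-HAI, with 22.4, 10.4 and 31.1 FPKM at 24-HAI. Those of Glyma15g03040 were Glyma17g12370, Glyma13g07610 and Glyma18g04940, and those of Glyma15g03050 were Glyma10g30110, Glyma06g42850 and Glyma13g11840. Glyma13g42330 had no close match among these genes. Its highest r was 0.91, with Glyma06g16340, at 14.2 (12-HAI) and 5.69 FPKM (24-HAI), followed by Glyma06g20970 (r = 0.89) and Glyma01g35570 (r = 0.87), and 0 of 12539 genes reached an r of 0.99.

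The names of the seed enzymes could not be placed on these genes. In the RefSeq annotation of the later assembly Glycine_max_v4.0, chromosome 13 has genes with the symbols LOX2, LOX1.1, LOXB1 and LOX7, and chromosome 15 has LOX3 and VLXB. That table holds 0 of the 7 identifiers, so which symbol belongs to which member, and which member encodes which seed isozyme, is not stated here. For the same reason other lipoxygenase and jasmonate genes of the series were not analysed here.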

How the data were processed

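RNA-Seq libraries of embryonic axes from 10 samples (2 biological replicates for each of 5 time points) were made by the authors with the TruSeq RNA kit and sequenced as paired ends. Reads were trimmed with Trimmomatic 0.30 and mapped with TopHat 2.0.9 and Bowtie 2.1.0 to version 1.1 of the soybean genome, and Cufflinks was used by the authors to obtain the deposited FPKM values, 1 per gene and time point. How the replicates were combined is not given in the sources used here. Time points were taken from the labels and column names, and 0 columns belonged to no time point.

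The 8 identifiers and all lists were chosen with earlier results of these data known. Where a gene was listed on both strands (647 genes), its larger peak value decided which listing was kept. Changes are ratios of FPKM without a pseudocount (limit 2.4, minimum 1 FPKM at the higher time point), or differences of log2(FPKM + 1), which understate the change of low genes. The design had foreseen a test only for replicate values, so none was run. Named genes are the members, genes sharing a member's values, the loci next to a cluster, and the 3 genes with the most similar course per member. Neighbours beyond these, Glyma20g01423 and Glyma14g14210 were named after their values were seen. Calls and scores were tested on simulated data. Python 3.11.15, numpy 2.4.6, pandas 2.3.3 and matplotlib 3.10.9 were used.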

Additional observations from a re-analysis of the deposited data

How the results depend on the processing

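No paired analysis was possible because the values are 1 per time point, and for the same reason no replicate could be left out. Alternatives were pseudocounts, fold limits, no minimum, median-ratio scaling, quantile normalization and equal totals. Leaving out Glyma13g42330 or Glyma13g42310, and rescaling the ratios between members, were chosen after seeing the data. Values within 1.5 times of those reported were taken as unmoved, and no member that passed the limit between dry and 24-HAI changed direction. Rescaling moved the median log2 change of all expressed genes between dry and 24-HAI, which was 0.39 as deposited, to 0.05 (median-ratio), 0.03 (quantile) and 0.98 (equal totals).

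Members up from dry to 3-HAI numbered 3 with no minimum, and 0 with a fold limit of 4, with median-ratio scaling or without Glyma13g42310. From 3-HAI to 6-HAI they numbered 2 with no minimum, and 0 with a pseudocount of 1 or without Glyma13g42330. From 6-HAI to 12-HAI 1 was up with a pseudocount of 1 or without Glyma13g42330, and 2 were down with a fold limit of 2, against 0 with a limit of 4 or equal totals. Shares of all expressed genes are given for the main setting alone. These counts under other settings therefore describe the members only. The ratio of 24-HAI to dry for the chromosome 13 sum was 4.65 with equal totals and 6.86 without Glyma13g42310. For the chromosome 15 sum it was 0.439 after quantile normalization and 0.433 with equal totals. The ratio for Glyma13g42340 moved to 2150 after quantile normalization and to 12495 with equal totals, against 7210 as deposited, and that for Glyma15g03040 to 258 and 1247, against 719.5. The decreases of Glyma15g03030, Glyma13g42310 and Glyma13g42320 at 24-HAI against dry were 18.4-fold, 1.68-fold and 73.1-fold after quantile normalization and 17.9-fold, 1.38-fold and 20.8-fold with equal totals. Scores moved over the limit of 0.7 on linear FPKM for Glyma15g03040 (0.88) and Glyma13g42330 (0.86), and under it with a pseudocount of 0.1 for Glyma13g42340 (0.61). The most similar genes depend on the measure. On linear FPKM the nearest to Glyma13g42330 was Glyma17g03040 (r = 0.9939), listed at 0 until 6-HAI, with 7356 (12-HAI) and 699.9 FPKM (24-HAI), and with a minimum of 1 FPKM it was Glyma09g28660 (r = 0.9948).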

Other observations

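Among loci a little further from the chromosome 15 cluster, named after their values were seen, 2 more declined to under 1 FPKM by the last time point. Glyma15g03130 had 10.9 (dry), 13.3 (3-HAI), 8.60 (6-HAI), 3.44 (12-HAI) and 0.764 FPKM (24-HAI). Glyma15g03140 had 2.68 (dry), 6.69 (3-HAI), 5.95 (6-HAI), 3.01 (12-HAI) and 0.182 FPKM (24-HAI). With 10 loci on each side, 5 of 14 expressed neighbours on chromosome 15 were up and 5 down at 24-HAI against dry axes. On chromosome 13 6 of 14 were up and 0 down, beside 38.5% and 21.7% of all expressed genes. The 14 on chromosome 13 include Glyma13g42230 and Glyma13g42250, which share all 5 values. Glyma15g03080, a short locus of the chromosome 15 neighbourhood (2155454 to 2155651), had 868 (dry), 517 (3-HAI), 308 (6-HAI), 107 (12-HAI) and 69.9 FPKM (24-HAI). By FPKM it exceeded every lipoxygenase gene with values in dry axes. As FPKM is scaled by length, the level of so short a locus is hard to compare with those of the longer lipoxygenase genes.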
